A study of Homo sapiens with 15 samples.

Results

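MT-ND1 and MT-ND2 are 2 of the 37 genes annotated on the human mitochondrial genome, and they encode core membrane subunits of complex I of the respiratory chain. Members were all 3′-OH termini on either strand whose 1-based position lay in MT-ND1 (chrM:3307-4262, 956 bp) or MT-ND2 (chrM:4470-5511, 1042 bp). These windows are the GRCh37 annotation applied to the hg19 positions of the files, and base numbers within a gene may be off by about 1. Together the genes held 1998 of the 16571 positions of the mitochondrial genome that the files use. They held 2296 to 31059 termini per sample, which was 2.09% to 9.23% of the 29622 to 692989 mitochondrial termini of a sample. Both windows are protein-coding sequence without introns, and each gene is annotated on the plus strand.

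The termini came from SSiNGLe-P1, which tails and sequences the 3′-OH ends left in DNA after P1, a nuclease that prefers single-stranded nucleic acid, has acted on formaldehyde-crosslinked nuclei. The cells were wild-type K562, an established chronic myeloid leukemia line, and mitochondria were present in the same pellet as the nuclei. Of the 15 samples, 3 biological replicates had no P1, and 3 had each of 0.01, 0.1, 1 and 10 U. Termini of the untreated samples, measured in the same way, give the background. The methods describe no molecular identifiers, so termini may not be independent molecules.

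Each mitochondrial DNA molecule has a guanine-rich heavy (H) strand and a light (L) strand. In the strand-displacement view of its replication, a new H strand is copied first and the parental H strand is displaced as single-stranded DNA until synthesis of the new L strand covers it. MT-ND1 and MT-ND2 follow the 16S rRNA gene and are separated by a short run of tRNA genes, and MT-ND2 ends shortly before the origin of L-strand synthesis. The comparison of strands within these genes addresses how P1 changed the termini on each strand away from the non-coding control region (NCR).

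Termini on the H strand of both genes rose with 0.1 and 1 U of P1 relative to the L strand of the same gene, and at 10 U the H/L ratio was back between 1.03 and 1.57. The H/L ratio is the number of H-strand termini over the number of L-strand termini of the gene in 1 sample, so it does not depend on how samples are scaled. In MT-ND1, H/L was 0.920, 0.759 and 0.841 in untreated replicates 1, 2 and 3, and 0.823, 0.874 and 0.935 at 0.01 U. It was 2.32, 2.56 and 3.09 at 0.1 U and 3.37, 5.08 and 8.42 at 1 U. At 10 U it was 1.34, 1.03 and 1.42. All samples at 0.1 U and 1 U were thus above all untreated samples and above all samples at 10 U, and the samples at 0.01 U overlapped the untreated ones.

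MT-ND2 followed the same order of amounts. Its H/L ratio was 0.835, 0.761 and 0.892 without P1 and 0.826, 0.928 and 1.02 at 0.01 U. With 0.1 U it was 2.03, 2.18 and 2.70, with 1 U 3.08, 4.97 and 6.89, and with 10 U 1.26, 1.12 and 1.57. Within each gene the samples at 1 U spread most widely, and every 1 U sample was above every 0.1 U sample.

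As geometric means over replicate numbers, 1 U raised H/L 6.26-fold over untreated in MT-ND1 and 5.71-fold in MT-ND2, and 0.1 U raised it 3.15-fold and 2.76-fold. From 1 to 10 U it changed by factors of 0.239 in MT-ND1 and 0.276 in MT-ND2. The spread of log2(H/L) over the 5 amounts gave p = 0.000208 in MT-ND1 and p = 0.000139 in MT-ND2 in exact two-sided permutation tests that exchanged values within replicate numbers (14400 arrangements, smallest possible p 6.94e-05). In a fit of H and L counts over all 37 genes, the change of log2(H/L) at 1 U was 2.65 ± 0.19 (SE, n = 3 against 3) for MT-ND1 and 2.52 ± 0.18 for MT-ND2, with edgeR adjusted p of 6.76e-16 and 4.86e-16. These SEs rest on a spread estimated over all 15 samples. By replicate number, the factor at 1 U ran from 3.66 to 10.0 in MT-ND1 and from 3.69 to 7.72 in MT-ND2.

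These calls were not particular to the 2 genes. At 1 U, H/L was called higher in 37 of 37 genes (100%), at 0.1 U in 35 (94.6%), and at 10 U in 26 (70.3%, with 2 genes or 5.41% called lower). MT-ND1 and MT-ND2 were called higher at each of these amounts. At 10 U their changes were 0.59 ± 0.19 (SE) and 0.66 ± 0.18 on the log2 scale, with edgeR adjusted p of 0.0096 and 0.0019, and the call of MT-ND1 at 10 U was lost without replicate 2 (adjusted p = 0.0637) and without replicate 3 (adjusted p = 0.0598). Between 1 and 10 U both fell, by 2.06 in MT-ND1 and by 1.86 in MT-ND2 on the log2 scale, as did 30 of 37 genes (81.1%). At 0.01 U no gene was called by edgeR and neither of the 2 by DESeq2. The changes were 0.07 ± 0.19 (SE) and 0.16 ± 0.18, with unadjusted edgeR p of 0.718 and 0.382.

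**Figure D1:**
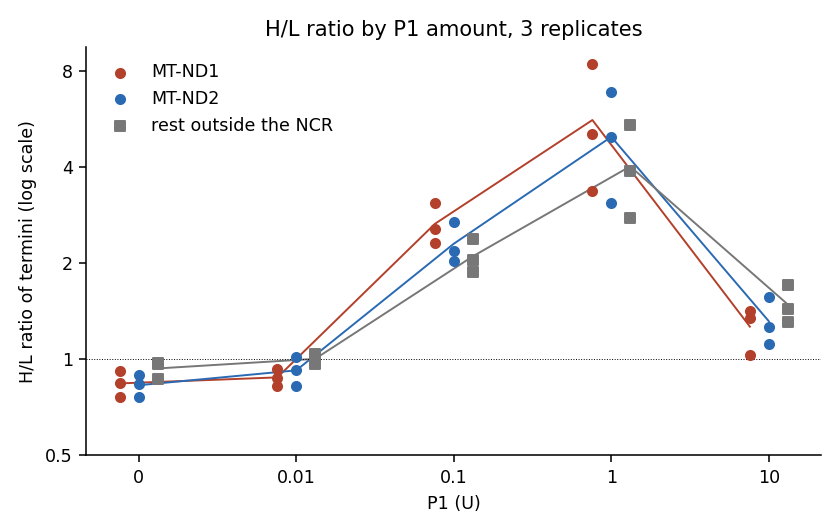
H/L ratio of termini (log scale) against the P1 amount in U for MT-ND1, MT-ND2 and the rest of the mitochondrial genome outside the NCR. Each point is 1 of 3 replicates and lines join the means; at 1 U MT-ND1 runs from 3.37 to 8.42 and MT-ND2 from 3.08 to 6.89, and at 0.1 and 1 U both genes lie above the rest of the same sample.

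The 2 genes moved further than the remaining mitochondrial genome outside the NCR, taken as 1 pool that includes the rRNA genes. The rest had H/L of 0.869 to 0.975 untreated, and of 1.87 to 2.39, 2.77 to 5.42 and 1.31 to 1.71 with 0.1, 1 and 10 U. Divided by the rest of the same sample, the H/L ratio of MT-ND1 was 0.897 ± 0.050 (SD, n = 3) in untreated samples. At 0.1, 1 and 10 U it was 1.26 ± 0.030, 1.36 ± 0.17 and 0.851 ± 0.073. For MT-ND2 the same quotient was 0.886 ± 0.026 untreated and 1.09 ± 0.033, 1.22 ± 0.093 and 0.883 ± 0.031 at those amounts.

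Both genes were therefore less H-biased than the rest of their own sample in all 3 untreated samples, more H-biased in all 6 samples at 0.1 and 1 U, and less H-biased again in all 3 samples at 10 U. Relative to untreated, the quotient rose 1.51-fold at 1 U in MT-ND1 and 1.38-fold in MT-ND2, in 3 of 3 replicate numbers each. The exact permutation test of its spread over amounts gave p = 0.00431 for MT-ND1 and p = 0.000833 for MT-ND2. Without replicate 2 the exact test for MT-ND1 gave p = 0.0917, of 120 arrangements. With only the other protein-coding genes as the rest, the quotient rose 1.40-fold at 1 U in MT-ND1 and 1.28-fold in MT-ND2.

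Complex I has 5 further subunit genes on this genome, MT-ND3, MT-ND4L, MT-ND4, MT-ND5 and MT-ND6. In the same fit all 5 were called higher in H/L at 0.1, 1 and 10 U and none at 0.01 U, beside the shares of all genes given above. At 1 U their changes on the log2 scale ran from 1.89 for MT-ND4 to 2.52 for MT-ND6, with a median of 2.16 where the median of all 37 genes was 2.52. MT-ND4L and MT-ND4 overlap, so some of their termini were counted in both. Among the 15 protein-coding and rRNA genes, MT-ND1 had the largest change of H/L at 1 U and MT-ND2 the fourth largest. The neighbours in that order, MT-CYB with 2.62 ± 0.18 (SE) and MT-ND6 with 2.52 ± 0.19, lay within 1 SE of them. Among all 37 genes, MT-ND1 ranked 15 and MT-ND2 ranked 19 in this change, so neither stood out there. The rRNA genes had the smallest changes, 0.37 ± 0.17 for MT-RNR1 and 0.64 ± 0.17 for MT-RNR2. MT-RNR2 is the rRNA gene just ahead of MT-ND1.

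The strands were then taken apart, as termini per kb. Without scaling, the H strand of MT-ND1 held 1235, 4234 and 4182 termini per kb in the untreated samples, 13609, 14513 and 13641 at 1 U, and 1008, 1346 and 626 at 10 U. The H strand of MT-ND2 held 879, 3615 and 3741 untreated, 9936, 11545 and 9469 at 1 U, and 1070, 1388 and 749 at 10 U. These densities carry the depth of the libraries, and untreated replicate 1 and the 3 samples at 10 U had the fewest mitochondrial termini (29622 to 112179, against 298951 to 692989 in the others).

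Per 1000000 mitochondrial termini, the H strand of MT-ND1 held 9548 ± 1286 termini per kb (SD, n = 3) in untreated samples, and 16811 ± 2219, 41280 ± 3958 and 22729 ± 1397 with 0.1, 1 and 10 U. The H strand of MT-ND2 held 7747 ± 78.0 untreated and 12171 ± 1545, 30471 ± 2439 and 24835 ± 498 in the same order. In both genes the 3 samples at 0.1 U, at 1 U and at 10 U were all above the untreated ones. On the L strand, MT-ND1 held 11362 ± 983 untreated and then 6390 ± 1094, 8201 ± 2923 and 18390 ± 4038. MT-ND2 held 9382 ± 759 untreated and then 5329 ± 748, 6674 ± 2193 and 19200 ± 2854. The L-strand samples at 0.1 U lay below all untreated samples in both genes, and those at 1 U overlapped them.

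In the edgeR fit over genes and strands with that total as the offset, the H strand of MT-ND1 rose by 0.82 ± 0.19 (SE) at 0.1 U and 2.13 ± 0.19 at 1 U on the log2 scale, with adjusted p of 8e-05 and 1.04e-24. The H strand of MT-ND2 rose by 0.65 ± 0.19 and 1.98 ± 0.19, with adjusted p of 0.00128 and 1.11e-21. Over all 37 genes the H strand was called higher in 75.7% (lower in 5.41%) at the smaller amount and in 94.6% at the larger.

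The L strand of both genes fell at 0.1 U, by 0.83 ± 0.20 (SE) in MT-ND1 and 0.83 ± 0.20 in MT-ND2 on the log2 scale, where 91.9% of genes were called lower. At 1 U it was lower by 0.52 ± 0.20 (edgeR adjusted p = 0.0148) and 0.54 ± 0.20 (adjusted p = 0.0126), where 73% of genes were called lower. The 1 U calls on the L strand were lost without the replicate block (adjusted p = 0.0669 and 0.0563) and without replicate 2 (0.219 and 0.226) or replicate 3 (0.0947 and 0.0749), and the 0.1 U calls without replicate 2 (0.0682 and 0.0684). Scaled to the total outside the NCR, the L strand at 1 U was lower by more, at -1.42 in MT-ND1 and -1.44 in MT-ND2, and the H strand was higher by less, at 1.21 and 1.06. That scaling set the median over all genes and strands 0.90 lower than the total of all mitochondrial termini did.

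At 10 U the sizes of the changes depended on the total, and on the L strand their direction did too. With all mitochondrial termini as the total, every strand of both genes was called higher, by 1.26 ± 0.19 (SE) and 0.69 ± 0.20 on the H and L strand of MT-ND1 and by 1.68 ± 0.19 and 1.02 ± 0.20 in MT-ND2, beside 91.9% of genes on the H strand and 67.6% on the L strand. The share outside the NCR differed as well: termini outside it were 29.9% to 33.3% of the total without P1 and 69.3% to 76.2% at 10 U. Scaled to the total outside the NCR, the H strand of MT-ND1 was at 0.07 (edgeR adjusted p = 0.512), its L strand was lower by 0.51 (adjusted p = 0.0089), the H strand of MT-ND2 was at 0.49 and its L strand at -0.17 (adjusted p = 0.258), and the median over all genes and strands lay 1.18 lower than with the other total. The L-strand call of MT-ND1 under the first total was lost without replicate 2 (adjusted p = 0.125). The split of calls over all 78 genes, remainders and strands changed from 61 higher and 1 lower to 23 higher and 22 lower.

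At 0.01 U neither strand of either gene was called by edgeR or by DESeq2, with log2 changes of -0.41 to -0.23 under the mitochondrial total. The L strand of MT-ND2 was the only one with an unadjusted edgeR p under 0.05, at 0.042.

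**Figure D2:**
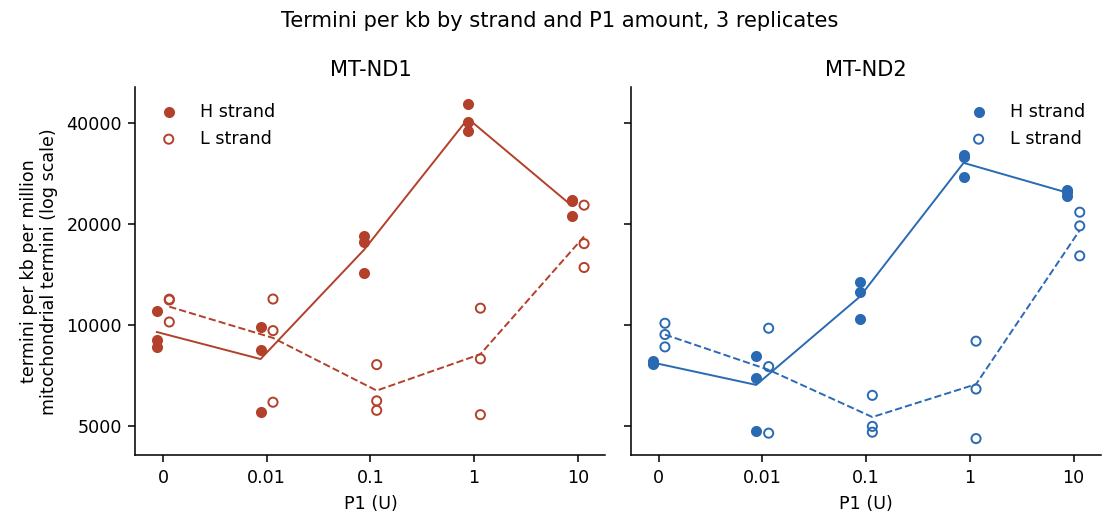
Termini per kb per 1000000 mitochondrial termini (log scale) on the H strand (filled points, solid line) and the L strand (open points, dashed line) of MT-ND1 and MT-ND2 against the P1 amount in U. Each point is 1 of 3 replicates and lines join the means; the strands part at 0.1 and 1 U and come close again at 10 U, where the L strand means are 18390 and 19200.

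More H-strand positions held a terminus at 1 U than without P1. Of the 956 positions of MT-ND1, the H strand had at least 1 terminus at 397, 631 and 622 in the untreated samples and at 858, 869 and 848 at 1 U. The L strand had 415, 662 and 641 without P1 and 586, 525 and 417 at 1 U. Counting each position once, H/L of MT-ND1 was 0.960 ± 0.0091 (SD, n = 3) untreated, and 1.44 ± 0.015, 1.72 ± 0.29 and 1.28 ± 0.058 with 0.1, 1 and 10 U. The same ratio of MT-ND2 was 0.940 ± 0.078 untreated and then 1.41 ± 0.021, 1.73 ± 0.24 and 1.11 ± 0.041, and in both genes the exact permutation test over amounts gave the smallest possible p, 6.94e-05. At 1 U the H strand was used at 88.7% to 90.9% of positions in MT-ND1 and 81.1% to 87.0% in MT-ND2, so unique positions were near the top of their range, and after thinning every sample to 2296 termini within the genes the 1 U factor over untreated was 3.06 in each gene, against 1.77 and 1.83 unthinned.

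With all termini counted, the order of the genes in H-strand density turned at 10 U. H-strand density in MT-ND2 over that in MT-ND1 was 0.712, 0.854 and 0.895 in the untreated samples, 0.709, 0.733 and 0.732 at 0.1 U and 0.730, 0.796 and 0.694 at 1 U. At 10 U it was 1.06, 1.03 and 1.20, so MT-ND2 was the denser gene in these 3 samples alone of the 15. The exact permutation test over amounts gave p = 0.00396, and the exact p became 0.0917 without replicate 2 and 0.075 without replicate 3. The turn was lost without the 3 highest positions per gene and strand, where the mean ratio at 10 U was 0.965 ± 0.045 (SD, n = 3) and its factor over untreated 1.16 in place of 1.34. With each position counted once the ratio was 0.908 ± 0.023 at 10 U, a factor of 1.02, and the exact permutation p over amounts was 0.803. The H/L ratio of MT-ND2 over that of MT-ND1 had a factor of 0.913 at 1 U and was above untreated in 1 of 3 replicates there. With each position counted once that factor was 1.03, in the other direction. The exact permutation test of the ratio over the 5 amounts gave p = 0.0135, which became 0.108 without replicate 1 and 0.158 without replicate 2. Adjusted over the 9 exact tests made on these genes, p ran from 0.000312 to 0.0135.

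The stretches of MT-ND2 on either side of a boundary that the study sets inside it differed in their mean changes, and a step at the boundary was not tested. At 1 U the H strand of chrM:5170-5269 and chrM:5270-5369, just beyond it, changed by 1.55 and 2.10 on the log2 scale. Ahead of it, that of chrM:4870-4969 and chrM:4970-5069 changed by 1.93 and 2.06. In chrM:5070-5169, which holds the boundary, the change was 2.38. The smallest changes, 0.97 and 1.08, lay further on, in chrM:5370-5469 and chrM:5470-5511. The study cuts the genome outside the NCR and the L-strand origin into Q1 to Q4. By its coordinates the end of Q3 and start of Q2 fall inside MT-ND2, so most of the gene belongs to Q3 and its last stretch to Q2. MT-ND2 as annotated ends before the L-strand origin, so both stretches lie on the same side of it. The comparison is therefore not one across the origin. H-strand density of the Q3 stretch over that of the Q2 stretch was 0.965, 0.787 and 0.764 untreated and 1.02, 1.08 and 1.15 with 0.1 U. With 1 U it was 1.18, 1.22 and 1.13, and with 10 U 1.66, 1.73 and 1.63. All samples at 0.1, 1 and 10 U were above all untreated samples, and the factors over untreated were 1.30, 1.41 and 2.01 (exact permutation test over amounts, p = 0.000833). Without the 3 highest positions per gene and strand the 10 U factor was 1.62, and with each position counted once it was 1.12, with an exact permutation p of 0.195 over the amounts.

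The profile within the genes was followed in bins of 100 bp from the first base of each gene, with 10 bins in MT-ND1 and 11 in MT-ND2, the last of each shorter. On the H strand all 21 bins were called higher at 1 U, where 86.4% of the 169 bins of the mitochondrial genome were, and 18 of 21 at 0.1 U, where 57.4% were and 11.8% were called lower. Their median log2 change was 2.10 with 1 U and 0.81 with 0.1 U. All 21 L-strand bins were called lower at 0.1 U (94.1% of all bins) and 14 of 21 were at 1 U (55% of all bins, with 2.37% called higher), with medians of -0.86 and -0.50. At 10 U 18 of 21 H-strand bins (91.7% of all bins) and 14 of 21 L-strand bins (66.9% of all bins) were called higher under the mitochondrial total. Scaled to the total outside the NCR, these counts were 10 and 1. There, 85 of all 338 bins of both strands were called higher and 120 lower. The 0.1 U counts were 10 on the H strand and 4 on the L strand without replicate 2, and the L-strand count at 1 U was 0 without it, 3 without replicate 3 and 2 without the replicate block. These last counts have no share over all bins beside them and describe only how the calls depend on the replicates and the block. At 0.01 U no bin was called by edgeR or DESeq2, and 9 of the 21 L-strand bins and none of the H-strand bins had an unadjusted edgeR p under 0.05.

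The H-strand rise was uneven along MT-ND1. The bin chrM:3507-3606 had the smallest change, 1.01 ± 0.22 (SE) at 1 U and -0.01 at 0.1 U, where it alone of the 10 bins of MT-ND1 was not called (edgeR adjusted p = 0.981). The bin chrM:3707-3806 had the largest, 2.89 ± 0.24 at 1 U. Without P1 the former held 14450 H-strand termini per kb per 1000000 and the latter 6404, and at 1 U they held 29375 and 46001, so their order turned. H/L of these bins at 1 U was 2.18 and 13.5.

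Along MT-ND2 the smallest H-strand changes at 1 U stood at the 3′ end of the window. The bin chrM:5370-5469 changed by 0.97 ± 0.22 (SE) and the short last bin chrM:5470-5511 by 1.08 ± 0.26, and their H/L ratios at 1 U were 1.25 and 1.08 where the gene as a whole had 4.98 ± 1.90 (SD). The largest change at 1 U was in chrM:4670-4769, 2.50 ± 0.23 (SE). At 10 U the bin chrM:5070-5169 stood apart, with 2.98 ± 0.24 on the H strand, while the last bin was at -0.06 there (edgeR adjusted p = 0.885) and had the largest L-strand change of the 2 genes, 1.94 ± 0.26.

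The shape of the L-strand profile stayed close to untreated up to 1 U. Across the 21 bins, the Pearson correlation of mean relative density with the untreated samples on the L strand was 0.991, 0.988, 0.975 and 0.591 with 0.01, 0.1, 1 and 10 U. On the H strand it was 0.987, 0.830, 0.746 and 0.675 in that order. These are descriptions over bins that share libraries and base composition.

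**Figure D3:**
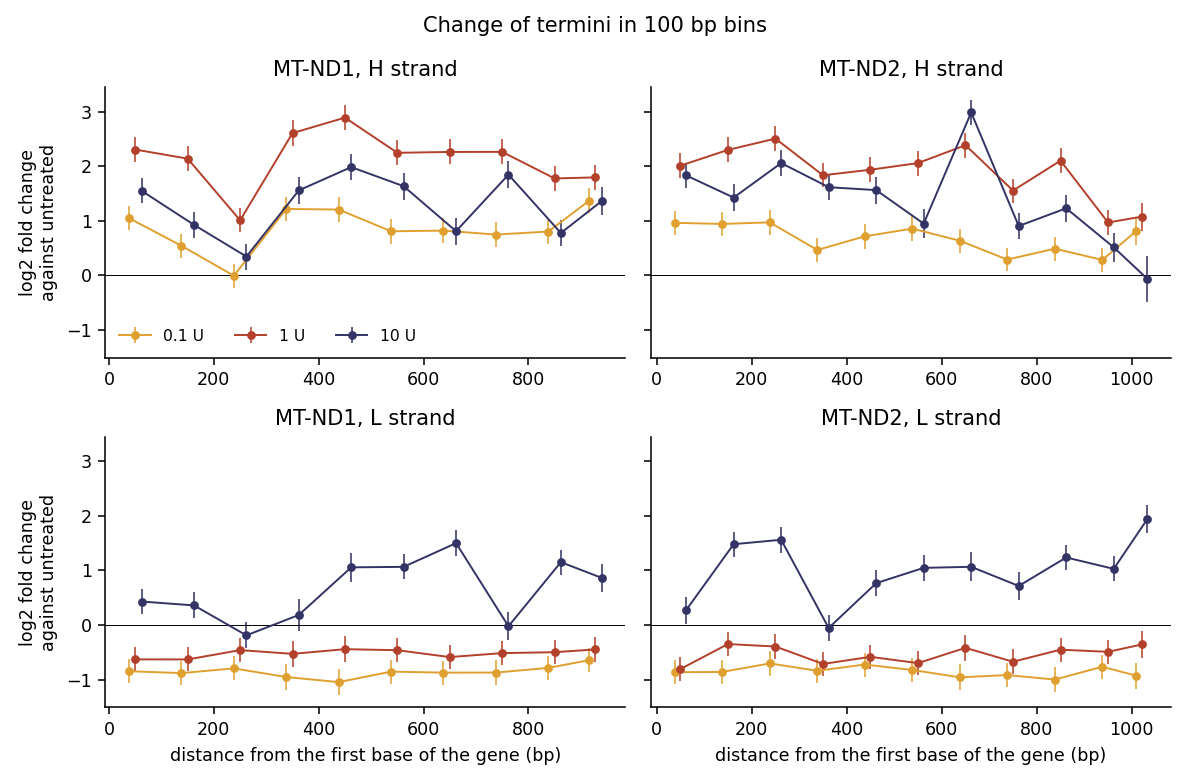
Log2 fold change of termini against untreated in 100 bp bins, by distance in bp from the first base of MT-ND1 or MT-ND2, on the H strand (top) and the L strand (bottom) at 0.1, 1 and 10 U, with all mitochondrial termini as the total. Points are edgeR estimates from 3 against 3 samples and bars are 1 SE; H-strand values at 1 U run from 0.97 to 2.89, and L-strand values at 0.1 and 1 U lie below 0 throughout.

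Single positions were tested where they held at least 150 termini summed over the 15 samples, which 327 H-strand and 159 L-strand positions of the 1998 did. These numbers cover positions that reached the minimum on the strand in question only. Because the minimum was summed over all samples, a position could pass through the amounts at which it was high. The filter thus favours positions called higher, in the genes and in the whole genome alike, and the shares are a description. On the H strand 282 of 327 positions (86.2%) were called higher at 1 U, beside 74.9% of the 2698 H-strand positions of the whole mitochondrial genome, and 143 (43.7%) at 0.1 U, beside 40.4%. Called lower were 1 H-strand position at 1 U, beside 2.04%, and 2 at 0.1 U, beside 1.07%. On the L strand 58 of 159 positions (36.5%) were called lower at 0.1 U, beside 25.4%, and 31 (19.5%) at 1 U, beside 15.6%. None was called higher at 0.1 U, beside 0.0689%, and 2 were at 1 U, beside 2.55%. At 10 U 119 H-strand positions (36.4%, beside 40.7%) and 33 L-strand positions (20.8%, beside 24%) were called higher, and 8 H-strand and 19 L-strand positions were called lower, beside 3.93% and 7.51%. At 0.01 U none was called by edgeR or DESeq2, and 16 H-strand and 10 L-strand positions had an unadjusted edgeR p under 0.05. The counts changed with the replicates kept, and no share over all positions stands beside those that follow. Without replicate 2, 1 L-strand position was lower at 0.1 U and 2 at 1 U, and without replicate 3 these counts were 19 and 8. Without replicate 1, 59 were lower at 1 U. On the H strand the count at 0.1 U was 72 without replicate 2 and 67 without replicate 3, and that at 10 U was 67 without replicate 2.

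Position 5100, base 631 of MT-ND2, was the highest H-strand position of either gene by mean share, and ranked 4 among H-strand positions outside the NCR. It held 8, 17 and 6 termini in the untreated samples and 17, 13 and 7 at 0.01 U. It held 52, 73 and 138 at 0.1 U, 250, 348 and 266 at 1 U, and 125, 189 and 119 at 10 U. All samples from 0.1 U up were above all untreated samples in number and in share, although the samples at 10 U were the shallowest.

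Its share of the H-strand termini of MT-ND2 was 0.493% ± 0.36 (SD, n = 3) untreated, and 1.22% ± 0.19, 2.67% ± 0.24 and 13.2% ± 2.0 with 0.1, 1 and 10 U. It was the most used H-strand position of MT-ND2 in all 6 samples at 1 and 10 U and in 1 at 0.1 U, and in none of the untreated samples. The change against untreated was 4.79 ± 0.35 (SE) at 1 U and 6.79 ± 0.36 at 10 U on the log2 scale, or 3.91 and 5.63 when scaled to the total outside the NCR. Positions were named by their mean level over the 15 samples, in which samples with a high level weigh most, so the values of named positions are a description. The signal was narrow: over the 3 samples at 1 U the position held 864 termini, the 10 positions on either side held 299 together and 79 at most, and the L strand held 1 at the same position. This position lies in the bin that stood apart at 10 U and in the Q3 stretch.

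Position 4477, base 8 of MT-ND2, was the next on that strand. It held 1, 2 and 5 termini untreated, 86, 79 and 74 at 1 U and 32, 39 and 34 at 10 U. Its change was 4.92 ± 0.47 (SE) at 1 U and 6.75 ± 0.48 at 10 U on the log2 scale, with all mitochondrial termini as the total. The third, position 5165, held a share of the H-strand termini of the gene of 1.46% ± 0.34 (SD, n = 3) without P1 and 1.25% ± 0.094 at 1 U.

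In MT-ND1 no H-strand position stood out to the same degree. The highest, position 3317 (base 11), had a larger share without P1, 2.43% ± 0.35 (SD, n = 3), than at 1 U, 1.30% ± 0.22, and its change at 1 U of 1.25 ± 0.28 (SE) was below the 2.13 of the whole H strand of the gene. Scaled to the total outside the NCR, that change of position 3317 was 0.34 (edgeR adjusted p = 0.196). Position 3311 (base 5) went the other way, from 0.712% ± 0.27 to 1.38% ± 0.22 at 1 U and 2.23% ± 0.089 at 10 U. Position 3779 (base 473) held 0.887% ± 0.088 without P1, 1.01% ± 0.18 at 1 U and 3.09% ± 1.0 at 10 U.

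The L-strand positions named in the same way included several with high levels at 10 U. Position 4203 of MT-ND1 held 4, 4 and 2 termini untreated, 25, 16 and 12 at 1 U, and 42, 80 and 13 at 10 U, a log2 change of 6.43 ± 0.49 (SE) at 10 U. Positions 3853 and 3852, which are adjacent, changed by 4.32 ± 0.39 and 3.14 ± 0.38 at 10 U. The log2 changes of L-strand positions here take all mitochondrial termini as the total. Scaled to the total outside the NCR, position 3853 was at 3.19 ± 0.34 (SE) at 10 U. In MT-ND2 position 4605 was the most used L-strand position in all 6 samples at 1 and 10 U, with 80, 69 and 59 and then 52, 91 and 20 termini, and its share of the L-strand termini of the gene was 1.46% ± 0.24 (SD, n = 3) untreated, 3.12% ± 0.90 at 1 U and 5.65% ± 1.5 at 10 U. Position 5388 changed by 2.44 ± 0.34 (SE) at 10 U, and position 4883 was at 0.19 ± 0.42 there (edgeR adjusted p = 0.745). The share of position 4883 was 1.84% ± 0.37 (SD, n = 3) untreated and 1.27% ± 1.2 at 10 U. Position 4142, picked after its values were seen, was the most used L-strand position of MT-ND1 in 2 of the 3 untreated samples, and its share fell from 1.99% ± 0.90 (SD, n = 3) without P1 to 0.539% ± 0.16 at 10 U.

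The joint share of the 3 highest positions is given as a description, since the choice by mean level favours positions that were high at any 1 amount. On the H strand of MT-ND2 they held 2.05% ± 0.53 (SD, n = 3) of termini without P1, 4.66% ± 0.12 at 1 U and 17.8% ± 2.7 at 10 U. Those of the L strand of MT-ND1 held 1.31% ± 0.63, 2.77% ± 0.12 and 13.7% ± 2.6. With fewer termini per sample at 10 U, single positions there rest on small numbers, as the counts above show.

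**Figure D4:**
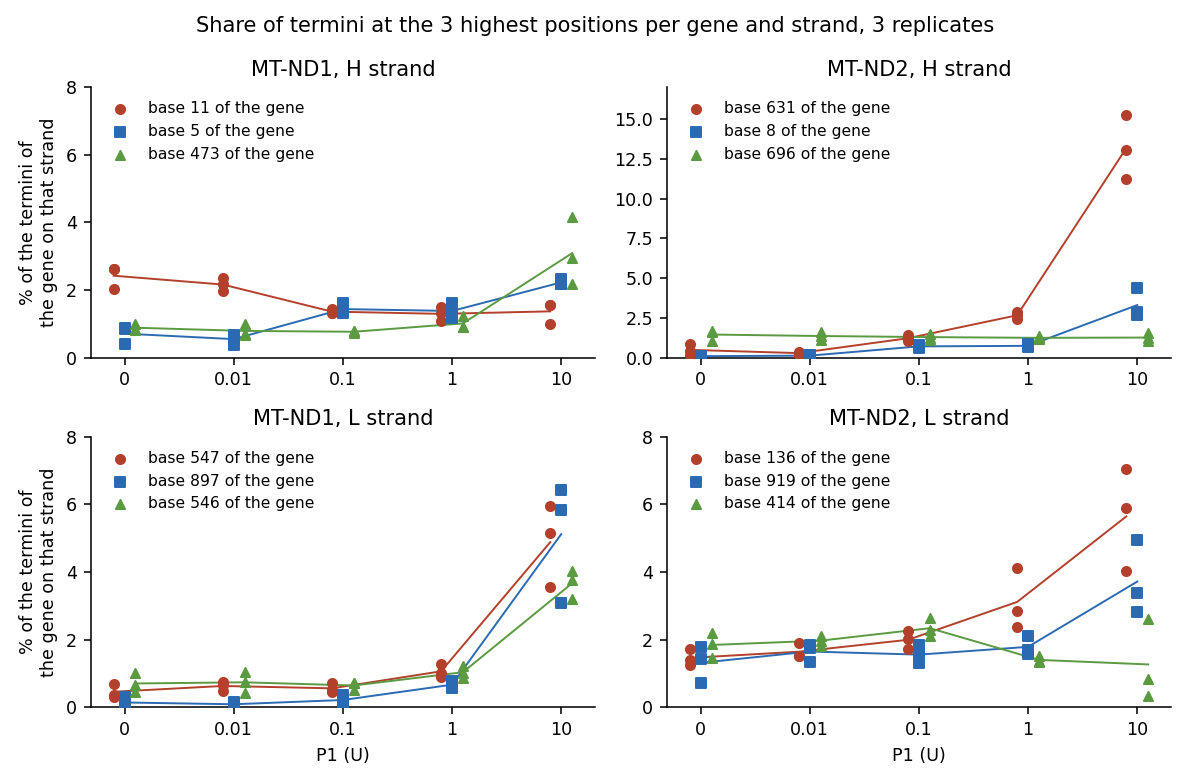
Share in percent of the termini of the gene on 1 strand that fell on each of its 3 highest positions, against the P1 amount in U, for the H strand (top) and L strand (bottom) of MT-ND1 and MT-ND2; the vertical axis of the H strand of MT-ND2 is longer. Points are 3 replicates and lines join the means; base 631 of MT-ND2 goes from 0.493% without P1 to 13.2% at 10 U.

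The H-strand level of each gene, as log2 of termini per kb per 1000000 mitochondrial termini over the 15 samples, was most like that of other protein-coding genes. For MT-ND1 the closest were MT-CYB (Pearson r = 0.988), MT-ND6 (0.987) and MT-ND5 (0.980), and for MT-ND2 they were MT-ND5 (0.995), MT-ND4 (0.993) and MT-CYB (0.991). MT-ND1 and MT-ND2 correlated with each other at 0.967, and the least alike were the rRNA genes, MT-RNR1 at 0.299 with MT-ND1 and at 0.497 with MT-ND2. The samples share their libraries and fall into P1 amounts, so these values describe likeness of pattern only.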

How the data were processed

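The authors aligned tail-trimmed reads with BWA-MEM 0.7.12 to the mitochondrial genome of hg19. They deposited the count of 3′-OH termini per position and strand, together with RPM values that were not used. Removal of PCR duplicates is not stated, so a count may not be one of independent molecules. Samples were grouped by their titles. The members, the gene lists and the tests were chosen with earlier results of these data known.

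The plus strand of the files, which the labels do not name, was taken as the H strand; under this assignment H/L runs over the P1 amounts in the direction that the study describes. Gene positions came from GENCODE annotation of GRCh37 on a mitochondrial sequence of 16569 bases, whereas that of the files has 16571, so windows may be off by about 1 base or slightly more. For the same reason no sequence is given here, and base composition was read by coordinates only for a check of the offset. Termini were poor in A and T at offsets 0 and 1 on the H strand and 1 and 2 on the L strand, a mirror image only about an offset of 1 base, so shifting the windows by 1 is among the alternatives. The NCR lay before position 579 and after 16024, and the end of Q3 followed the study's methods.

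H/L ratios, densities and unique positions were computed per sample and their spread over amounts was tested exactly within replicate numbers. Counts per gene (37 genes plus the NCR and the remainder on each strand), per 100 bp bin and per position with at least 150 termini were fitted with edgeR 4.0.16 (quasi-likelihood, R 4.3.3) over the whole mitochondrial genome, with the total of mitochondrial termini as the offset, the replicate number as a block and Benjamini-Hochberg adjustment over each table, and called at 0.05. The change of log2(H/L) came from a fit with both strands of each sample. Named positions are the 3 per gene and strand with the largest mean share over the samples, and named bins those with the largest and smallest change at 1 U. Other bins, neighbours of position 5100 and the boundary bin were named after their values were seen. DESeq2 1.42.0, other totals, filters, bin widths and leaving out each replicate number were alternatives. All fits and the permutation test were tested on simulated data. Depth was 29622 to 692989 mitochondrial termini per sample. The SDs given cover the spread between 3 replicates. The SEs of the fits rest on a spread estimated over all 15 samples and do not give that of the 3 replicates alone.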

Additional observations from a re-analysis of the deposited data

Results flagged for a closer look

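Nuclear copies of these genes were not part of the comparisons, and 1 of them held more plus-strand termini at 0.01, 0.1 and 1 U than without P1. MTND2P28, a nuclear copy of MT-ND2 on chromosome 1 (565020 to 566063, GRCh37), had a mean of 1 plus-strand terminus per untreated sample (range 0 to 2). With 0.01 U the mean was 4.33 (range 3 to 6), with 0.1 U 5.67 (range 3 to 10) and with 1 U 11.7 (range 10 to 13). The samples at 10 U held 4, 4 and 0 and overlapped the untreated ones. The rule that picked it, every sample of an amount above every untreated one with a sum of at least 10, was set after the values were seen, and the difference was not tested. These counts are small and not scaled to depth. The placement of reads between this copy and the mitochondrial gene was not checked. All 67 annotated copies of both genes together held 43 to 79 termini per sample, which was 0.174% to 1.87% of the termini in the mitochondrial genes.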

How the results depend on the processing

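Of 395 values under alternatives, over 51 results, 317 were labelled the same. A ratio kept the direction of its 1 U factor and the call of its permutation test. A fitted change kept direction and call, and a percentage of bins or positions stayed within a fixed factor. Ratios at 10 U did not enter the label. Without the 3 highest positions per gene and strand, some of their factors over untreated reversed. H/L of MT-ND2 over MT-ND1 went from 1.05 to 0.848, and that of MT-ND1 over the rest from 0.947 to 1.05. Shifting the genes by 1 base, bins of 50 bp, other genes as the rest and thinning left every result the same by these rules. Same-numbered samples deviated together in 15 of 30 pairs (r over 0.1; median 0.117, against -0.0068 over the 60 pairs of other numbers), so the replicate numbers are not shown to pair the samples. Without the replicate block, the L strand at 1 U was at -0.47 in MT-ND1 and -0.49 in MT-ND2, neither called, 9.52% of L-strand bins were lower at 1 U, and none of the remaining 48 results changed. DESeq2 moved 1 of the results it was run on, L-strand positions lower at 0.1 U, to 23.3%. Beside these results, DESeq2 ended the call of L-strand position 3853 of MT-ND1 at 1 U (DESeq2 adjusted p = 0.0747).

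Several values changed with the total used for scaling; the cause was not tested. With the total outside the NCR, TMM and median-of-ratios in turn, at 10 U MT-ND1 was at 0.071, 0.27 and 0.16 on the H strand (not called) and at -0.51, -0.30 and -0.42 on the L strand (called lower), and the L strand of MT-ND2 was at -0.17, 0.039 and -0.077 (not called). At 0.01 U the uncalled H-strand changes turned positive, 0.015, 0.12 and 0.071 in MT-ND1 and 0.063, 0.18 and 0.12 in MT-ND2, as did the L strand of MT-ND1 under TMM (0.058) and median-of-ratios (0.0036) and of MT-ND2 under TMM (0.016). In the same order, L-strand bins higher at 10 U were 4.76%, 23.8% and 19.0%, H-strand positions higher at 10 U 17.7%, 21.7% and 18.7%, L-strand positions higher at 10 U 8.18%, 11.9% and 10.1%, and L-strand positions lower at 1 U 89.9%, 90.6% and 91.2%. H-strand bins higher at 10 U were 47.6% under the total outside the NCR and median-of-ratios, and L-strand positions lower at 0.1 U 62.3% under TMM and 79.2% under median-of-ratios. Over all bins, 268 higher and 2 lower at 10 U became 85 and 120 with the total outside the NCR. Of all 4149 tested positions of both strands, 281 were lower at 1 U under the mitochondrial total. Under the other totals, in the order above, 1568, 1609 and 1647 were.

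Without the filter on positions, 6.06%, 35.0% and 7.78% of H-strand positions were higher at 0.1, 1 and 10 U, 0.927% and 1.34% of L-strand positions lower at 0.1 and 1 U, and 4.12% higher at 10 U. With at least 600 termini, 59.5% on the H strand were higher at 10 U and 54.5% on the L strand lower at 1 U. Shares over all positions are not given for these filters. With each position counted once, MT-ND2 over MT-ND1 at 1 U was 1.03 for H/L and 1.06 for H-strand density, above 1 instead of below, and Q3 over Q2 was 1.12.

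Leaving out each replicate number gave, at 1 U over untreated, 1.38 to 1.64 for H/L of MT-ND1 over the rest, 0.868 to 0.993 for H/L of MT-ND2 over MT-ND1 and 0.850 to 0.978 for their H-strand density. L-strand changes were -0.92 to -0.72 at 0.1 U, -0.75 to -0.33 at 1 U and 0.54 to 0.77 at 10 U in MT-ND1, and -0.92 to -0.71 and -0.78 to -0.36 at 0.1 and 1 U in MT-ND2. The change of log2(H/L) in MT-ND1 was -0.00045 to 0.18 at 0.01 U and 0.50 to 0.66 at 10 U. Called bins ranged over 47.6% to 76.2% (H, 0.1 U), 19.0% to 100% (L, 0.1 U), 0% to 76.2% (L, 1 U) and 42.9% to 71.4% (L, 10 U), and positions over 20.5% to 45.0% (H, 0.1 U), 20.5% to 32.4% (H, 10 U), 0.629% to 38.4% (L, 0.1 U), 1.26% to 37.1% (L, 1 U) and 11.9% to 22.6% (L, 10 U). Shares over all bins and positions are not given for these subsets. The samples at 10 U had the fewest termini, which limits single positions there.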
